A study of Mus musculus with 2 samples.

Results

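Dense clusters of distal accessible sites are stretches of DNA in which several open sites sit close together away from any annotated transcript start. In DNase-seq, isolated nuclei are treated with the nuclease DNase I, the cut ends are sequenced, and a peak marks a region that the enzyme reached. The libraries were made from right cerebral cortex, taken at 2 months from males of B6CASTF1/J, a first-generation cross of the laboratory strain C57BL/6J with CAST/EiJ, with no treatment named. There was 1 group with 2 libraries, replicate 1 (animal 5) and replicate 2 (animal 6). The labels give both libraries the same donor record, so that they are separate animals rests on the animal numbers, and any spread between them may be technical. With 1 group there was no contrast to test, and every result is a description of these 2 libraries.

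Members were chosen by position alone, from the stricter of the peak sets deposited for each library. Replicate 1 had 91818 such peaks and replicate 2 had 75245. A peak of replicate 1 was shared and distal if it overlapped a peak of replicate 2 and its centre lay over 1000 bp from every GENCODE M21 transcript start, which left 39265 peaks. Neighbours with centres at most 5000 bp apart were joined, and joined groups of 5 or more peaks were kept. That gave 82 clusters with 496 member peaks, 1.26% of the shared distal peaks. The number of peaks, their spacing and their being open in both libraries are therefore the rule and not a result. Just under the threshold, 188 groups of 4 peaks had a median span of 4.70 kb and median summed heights of 5.68 in replicate 1 and 4.18 in replicate 2. Just inside it, 40 groups of 5 peaks had a median span of 6.32 kb and median summed heights of 7.23 and 5.67.

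Distal open sites include enhancers, silencers and insulators, where transcription factors bind in place of nucleosomes, and such elements act on genes that can lie far off. In brain, genes for developmental transcription factors and genes switched on by neuronal activity are known for having several enhancers near them. A different kind of site that lies far from annotated transcript starts is the transfer RNA gene. RNA polymerase III transcribes it from an internal promoter made of an A box and a B box, and factors bound there keep the gene itself open. Peaks of both kinds enter the clusters, because the transcript annotation used to define "distal" does not hold tRNA genes. In a bulk tissue, a site open in few cells and a site less open in many cells cannot be told apart.

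The sequences below show the contrast between these kinds of site. Each is 1 member peak of 8 of the 10 clusters with the most peaks, the single-copy peak off coding exons with the best mean rank of height over both libraries, read from the forward strand of the GRCm38.p6 reference and not from these mice. The first 3 are member peaks that each cover an annotated tRNA gene, written in capitals.
Ctc1 cluster, chr11:69041681-69041920, tRNA-Trp gene: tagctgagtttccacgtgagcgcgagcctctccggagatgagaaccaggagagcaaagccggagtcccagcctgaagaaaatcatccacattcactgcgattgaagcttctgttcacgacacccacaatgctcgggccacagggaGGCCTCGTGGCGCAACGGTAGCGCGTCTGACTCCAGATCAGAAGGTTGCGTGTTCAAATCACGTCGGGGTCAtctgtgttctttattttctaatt
Olfr1423 cluster, chr19:12005901-12006160, tRNA-Lys gene: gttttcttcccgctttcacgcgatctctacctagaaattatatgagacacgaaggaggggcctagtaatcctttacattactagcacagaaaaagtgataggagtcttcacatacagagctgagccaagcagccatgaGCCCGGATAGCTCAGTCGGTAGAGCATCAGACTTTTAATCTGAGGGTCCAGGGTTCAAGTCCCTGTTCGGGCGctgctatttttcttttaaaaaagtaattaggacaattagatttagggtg
Trim27 cluster, chr13:21167501-21167760, tRNA-Met gene: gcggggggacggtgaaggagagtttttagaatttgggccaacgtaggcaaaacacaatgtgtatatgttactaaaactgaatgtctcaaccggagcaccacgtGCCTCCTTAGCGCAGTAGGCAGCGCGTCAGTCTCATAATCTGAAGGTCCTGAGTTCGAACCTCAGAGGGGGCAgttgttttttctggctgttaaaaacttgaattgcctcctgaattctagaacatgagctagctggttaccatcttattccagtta
These peaks had heights of 6.47, 3.91 and 3.16 in replicate 1 and 3.89, 2.41 and 2.22 in replicate 2. All 3 tRNA genes lie on the forward strand. Each fills only a part of its peak, and in the Ctc1 and Olfr1423 peaks most of the rest lies on the 5′ side of the gene.

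In the other member peaks capitals mark matches to the searched motifs, which are spelled out with the motif results below. Matches are marked over the whole printed sequence. The Snph match and part of the Id2 match lie outside the central 200 bp that the motif results count. The Mef2c and Nap1l1 peaks lie in intergenic DNA far from coding starts, at 62293 bp and 83122 bp. The Id2 and Msl1 peaks are also intergenic, at 1801 bp and 8158 bp, and the Snph peak lies in an intron at 3070 bp. These distances are to the nearest coding start, and for the Msl1 peak that start is not the one of Msl1.
Mef2c cluster, chr13:83715061-83715300, homeobox motif: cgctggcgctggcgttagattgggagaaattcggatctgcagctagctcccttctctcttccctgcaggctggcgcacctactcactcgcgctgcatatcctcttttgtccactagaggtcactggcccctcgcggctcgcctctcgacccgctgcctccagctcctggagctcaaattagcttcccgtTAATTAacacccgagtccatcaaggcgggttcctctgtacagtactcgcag
Nap1l1 cluster, chr10:111389981-111390220, AP-1, ZEB and NFI motifs: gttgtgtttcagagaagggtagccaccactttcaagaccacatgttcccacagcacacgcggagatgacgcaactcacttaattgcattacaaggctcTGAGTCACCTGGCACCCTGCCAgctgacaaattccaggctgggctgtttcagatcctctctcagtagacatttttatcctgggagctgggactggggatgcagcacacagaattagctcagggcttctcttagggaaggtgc
Id2 cluster, chr12:25098821-25099060, ZEB motif: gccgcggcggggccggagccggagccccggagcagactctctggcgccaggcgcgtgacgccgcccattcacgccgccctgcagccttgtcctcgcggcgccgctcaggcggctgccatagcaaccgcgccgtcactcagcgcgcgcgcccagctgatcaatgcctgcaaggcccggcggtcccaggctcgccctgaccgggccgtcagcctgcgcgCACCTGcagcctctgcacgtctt
Msl1 cluster, chr11:98783381-98783600, clock E-box: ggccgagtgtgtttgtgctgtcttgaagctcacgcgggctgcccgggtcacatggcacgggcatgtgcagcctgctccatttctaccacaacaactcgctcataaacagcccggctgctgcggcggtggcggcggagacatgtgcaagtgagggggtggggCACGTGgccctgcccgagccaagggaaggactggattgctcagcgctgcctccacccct
Snph cluster, chr2:151629251-151629550, AP-1 motif: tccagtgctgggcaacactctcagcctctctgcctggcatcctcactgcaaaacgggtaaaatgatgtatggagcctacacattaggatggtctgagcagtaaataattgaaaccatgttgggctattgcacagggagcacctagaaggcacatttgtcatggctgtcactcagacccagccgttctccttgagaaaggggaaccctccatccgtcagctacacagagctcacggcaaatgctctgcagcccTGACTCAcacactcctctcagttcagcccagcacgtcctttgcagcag
The heights of these peaks in replicates 1 and 2 were 4.46 and 3.44 (Mef2c), 4.09 and 2.80 (Nap1l1), 3.41 and 2.16 (Id2), 6.67 and 3.53 (Msl1), and 0.770 and 0.591 (Snph). The Snph sequence is the central 300 bases of a peak of 440 bp, and other members of that cluster were taller in 1 library, at 0.826 in replicate 1 and 0.691 in replicate 2. In the Nap1l1 peak the AP-1, ZEB and NFI matches overlap or adjoin in a single run.

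Most clusters were small. Of the 82, 40 held 5 peaks, 23 held 6, 10 held 7 and 5 held 8, and single clusters held 9, 10, 12 and 17. Their spans ran from 1.75 to 19.5 kb with a median of 6.35 kb, and together they covered 591 kb. The height of a peak is the value deposited by the authors, a signal of unstated scale, and the summed height of a cluster adds the peaks of 1 library. Summed heights ran between 2.18 and 32.4 in replicate 1 (median 8.30) and between 1.64 and 21.5 in replicate 2 (median 6.22), and the mean of the medians was 7.26 ± 1.47 (SD, n = 2). The order of the clusters was similar in both libraries, with a Pearson correlation of log10 summed height of 0.942 and a Spearman correlation of 0.936 across the 82 clusters, which share libraries, depth and the number of peaks summed. The median ratio of replicate 1 to replicate 2 was 1.44, with a range from 0.906 to 2.09. Across all 39265 shared distal peaks the median ratio of single heights was 1.30. A replicate 2 peak that met several member peaks was counted once, so the sums rest on 496 peaks in replicate 1 and 485 in replicate 2. The replicate 1 list also holds peaks that overlap each other. Of the 496 members 62 overlapped another member (12.5%), in 24 clusters, and each was counted and summed, so the 496 peaks cover 461 separate stretches. In 12 clusters there were fewer than 5 separate stretches, those of Spry2, Slitrk1, Immp2l, Lipi, Arap3, Fat3, Egr3, Sox11, Foxn2, Fzd8, Edil3 and Bin1. When overlapping peaks were merged before joining, 70 clusters were left.

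**Figure D1:**
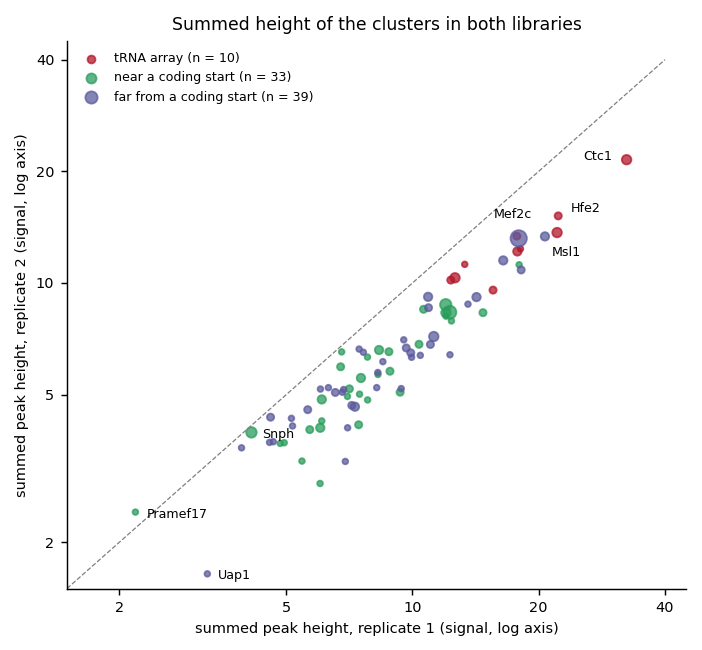
Summed peak height of each of the 82 clusters in replicate 1 (x axis, signal, log axis) and replicate 2 (y axis, signal, log axis), coloured by class, with larger points for more peaks and a dashed line of equal values. The 10 tRNA arrays lie at the upper end, from 12.3 to 32.4 in replicate 1, and nearly all clusters lie under the line.

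Every cluster was given 1 protein-coding gene, the one that holds its midpoint (the longest where several do) or otherwise the one with the nearest start. Of the 82 clusters, 38 lay in a coding gene body (46.3%, Wilson 95% interval 36 to 57.1%), and 44 were given the nearest gene. This share, taken at cluster midpoints, was close to that of the other shared distal peaks by their centres (46.5%). Of the member peaks, 37.9% had the centre in a coding gene body. The 82 genes are 0.374% of the 21938 annotated coding genes, and no gene had more than 1 cluster. The clusters were then sorted into 3 classes chosen after their values were seen: 10 tRNA arrays with at least 2 member peaks over tRNA genes, 33 others with the midpoint within 10 kb of a coding start, and 39 farther away. Of the 33, 15 spanned a coding start, so that their members lay on both sides of a promoter. These were the clusters of Tnrc18, Snph, Id2, Icam5, Cited2, Irs1, Spry2, Gpr162, Ptma, Thra, Gadd45g, Fat3, Egr3, Nrp2 and Fzd8. The second class lay mostly in gene bodies (28 of 33) and the third mostly between genes (10 of 39 in a gene body). Clusters far from coding starts were longer, with a median span of 9.01 kb against 6.11 kb near starts and 5.60 kb for tRNA arrays. No cluster fell on chromosome X, which had 859 shared distal peaks. Chromosomes 2 and 11 had the most, with 8 clusters each, but by the share of shared distal peaks that were members chromosomes 12 (2.28%) and 13 (2.21%) were highest, against 1.59% on chromosome 2 and 1.91% on chromosome 11.

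The tRNA arrays had the highest summed heights. Their median was 17.8 in replicate 1 and 12.3 in replicate 2, against 7.53 and 5.54 for clusters near a coding start and 8.22 and 5.74 for clusters far from one. The lowest array reached 12.3 in replicate 1 and 9.57 in replicate 2, above the median of both other classes. The 10 arrays held 65 member peaks, and 42 of these covered a RefSeq tRNA gene (64.6%, Wilson 52.5 to 75.1%). Arrays were defined by such peaks, so this share follows in part from the class. Over all clusters, 42 of 496 member peaks covered a tRNA gene (8.47%). Outside the clusters, 117 of 38769 shared distal peaks did (0.302%). The arrays therefore held 26.4% of all shared distal peaks over tRNA genes, while all clusters held 1.26% of shared distal peaks. Of the 403 tRNA genes that RefSeq lists on these chromosomes, 210 had a peak in both libraries (52.1%). Member peaks over tRNA genes had median heights of 3.02 and 2.35, and peaks over tRNA genes outside the clusters 2.75 and 2.17.

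The array nearest Ctc1, a gene for a telomere maintenance protein, had the highest sum of all clusters, 32.4 in replicate 1 and 21.5 in replicate 2. It held 8 peaks in 5.96 kb, 7 of them over tRNA genes, and these were for 7 different amino acids (Asp, Gly, Ile, Pro, Ser, Thr and Trp). Its peak heights lay between 2.22 and 6.47 in replicate 1 and between 1.74 and 3.89 in replicate 2, so every peak was above the median of all shared distal peaks (1.06 and 0.837). The array nearest Hfe2 (22.3 and 15.2) held tRNA genes for Asn, Glu, Gly, His and Lys. The array nearest Olfr1423 (22.1 and 13.7) spanned 10.3 kb and held 8 tRNA genes, for Arg, Leu, Lys, Phe and Val. The array nearest Shf (17.7 and 13.4) held 3 tRNA-His genes, of 11 in the assembly, and its tallest peak was the tallest of all member peaks in replicate 2 at 4.71. The array nearest Rnase12 (18.1 and 12.4) was the shortest, with 5 peaks in 2.64 kb. The 5 other arrays lay nearest Dhx37 (17.8 and 12.2), Borcs6 (15.6 and 9.57), Trim7 (13.3 and 11.2), Trim27 (12.6 and 10.3) and Fcgr4 (12.3 and 10.2). In all, the spans of the arrays held 49 tRNA genes, 42 tRNA genes lay under member peaks, and these belonged to 18 kinds by amino acid, with Leu (5), Asp (4) and His (4) the most frequent. None of the 10 arrays lay in a coding gene body. The coding genes named with them are only the nearest, and for Olfr1423, an olfactory receptor gene, and Hfe2, which regulates iron uptake, no promoter peak was found in either library. The same was true of Rnase12, and Trim7 had none in replicate 2. In the Trim27 array 1 member peak occurs in up to 9 copies in the assembly, and how reads were placed there is not stated.

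The cluster with the most peaks held 17 in 12.4 kb (chr13:83713641-83726060). Its nearest coding start, 66963 bp from the midpoint, is that of Mef2c, which encodes a transcription factor of neurons and muscle. The cluster lies over the lincRNA genes C130071C03Rik and Gm26803, and the gene for the microRNA Mir9-2 begins 12.8 kb beyond its end. Its summed heights were 17.9 in replicate 1 and 13.2 in replicate 2. Within it 1 peak stood out, at 4.46 in replicate 1 and 3.44 in replicate 2, while the median peak was at 0.745 and 0.714, below the median of all shared distal peaks. Of its 17 peaks, 13 held a footprint in replicate 1 and 10 in replicate 2. A footprint is a short stretch inside an open site that the authors called as protected from cutting.

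MicroRNA genes lay near several clusters. Of the 82 clusters, 12 had an annotated microRNA gene within 25 kb of the midpoint (14.6%), against 1645 of 38769 other shared distal peaks (4.24%). The limit of 25 kb was chosen after the values were seen. These shares set cluster midpoints against single peaks and were not matched for distance to coding starts. The 12 were the clusters given to Mef2c, Icam5, Tchh, Hsd17b12, Chd4, Dhx15, Ythdf1, Rrp1, Fbxo2, Arap3, Syn2 and Trib2, and 3 of them are described here because their microRNAs are well known in neurons, a choice made after the list was seen. The cluster whose nearest coding start is Hsd17b12 (9.66 in replicate 1 and 6.68 in replicate 2, 6 peaks in 3.20 kb) lies in introns of Mir670hg, and Mir129-2 is 2.81 kb from its edge. The cluster nearest Ythdf1 (6.55 and 5.07) contains Mir124a-3. The mature products of Mir9-2 and Mir129-2 from RefSeq (GRCm38.p6) are shown to identify these genes, with the seed, bases 2 to 8, in capitals.
mmu-miR-9-5p: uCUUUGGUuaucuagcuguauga
mmu-miR-9-3p: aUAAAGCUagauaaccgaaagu
mmu-miR-129-5p: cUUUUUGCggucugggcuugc
mmu-miR-129-2-3p: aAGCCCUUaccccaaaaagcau
No seed is shared among the 4.

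The other clusters with many peaks differed in how their height was spread. The Tnrc18 cluster held 10 peaks in 10.7 kb (12 and 8.74). The Snph cluster held 9 peaks in 14.2 kb, inside and beside the gene for syntaphilin, which anchors mitochondria in axons. Its peaks were low, with medians of 0.344 and 0.422 and sums of only 4.13 and 3.95, so that it came near the lowest clusters by sum although it was the fourth by number of peaks. The Thra cluster was the opposite case. It held 5 peaks in 11 kb, and 1 peak of 7.74 in replicate 1 and 4.45 in replicate 2 gave 62.5% and 56.4% of the sum. Thra encodes a thyroid hormone receptor, and the nearest coding start, 1725 bp from the cluster midpoint, is that of Nr1d1, a clock repressor that overlaps Thra's end. Over the 82 clusters the tallest peak gave a median of 28.9% of the sum in replicate 1, and it was the tallest in both libraries in 56 clusters.

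**Figure D2:**
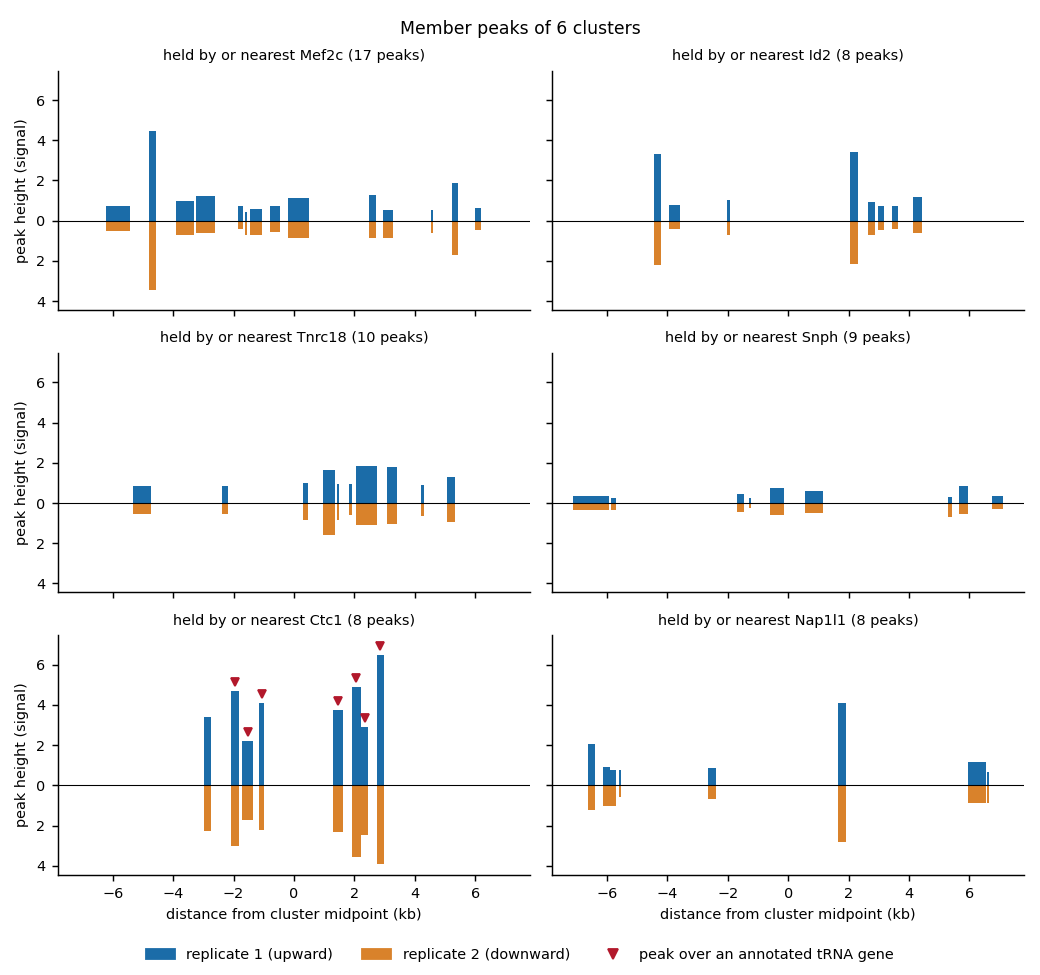
Member peaks of 6 clusters by distance from the cluster midpoint (x axis, kb), with the peak height (y axis, signal) in replicate 1 upward and replicate 2 downward, bars as wide as the peaks, and triangles over peaks that cover a tRNA gene. In the Ctc1 array nearly all peaks are tall, the Mef2c and Nap1l1 clusters each have 1 peak above 4 in replicate 1, and the Id2, Tnrc18 and Snph clusters have none.

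Genes of transcription and chromatin were given 17 of the 72 clusters that are not tRNA arrays, by a grouping made after the cluster list was known. The share of such genes among all coding genes was not counted for this or the next 2 groups, so their numbers describe the clusters and are no excess over a background. Of the 24 genes in the list of transcriptional corepressors and chromatin genes, none was given a cluster. The 17 clusters had median sums of 9.91 in replicate 1 and 6.63 in replicate 2. The highest was the Msl1 cluster (20.7 and 13.4), centred 10044 bp from the start of a gene for a subunit of a histone acetyltransferase complex, and its tallest peak reached 6.67 and 3.53. That peak lies nearer to the start of another coding gene than to that of Msl1. In replicate 1 the Bahcc1 cluster was next (18.2 and 10.8), while in replicate 2 the Mef2c cluster was (13.2). The Bahcc1 cluster was the only cluster with a member peak over a RefSeq enhancer, the VISTA element mm1481. The activity recorded for this element is in dorsal root ganglion and in a category named other, and cortex is not named. The Id2 cluster (12 and 8.32, 8 peaks) lay on both sides of the start of Id2, an inhibitor of basic helix-loop-helix factors, with its midpoint 379 bp from that start. The Kdm6b cluster (14.7 and 8.32) lay in introns of a gene for a histone demethylase. Scrt1, a zinc-finger repressor of neurons, had 6 peaks in 4.30 kb (8.84 and 5.78), and Sox11, a factor of young neurons, had 5 in 3.30 kb (6.08 and 4.25), all 5 in exons. Hivep2 (10.9 and 9.18) was given a cluster centred 245176 bp from its start. Chd4 (9.91 and 6.48), Maml3 (7.44 and 4.15), Rara (9.40 and 5.19), Cited2 (6.08 and 4.85), Mrtfb (7.46 and 6.63) and Foxn2 (6.92 and 3.30) were also in this group. The Chd4, Mrtfb and Foxn2 clusters are only nearest to these genes, centred 10050, 60870 and 185990 bp from their starts.

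Genes of synapses, adhesion and axon guidance were given 11 clusters, with sums of 4.13 to 10.4 in replicate 1 (median 6.74) and 3.31 to 6.83 in replicate 2 (median 5.22). For comparison, the 32 clusters in no group and no array had medians of 7.38 and 5.17. The 11 clusters included those of Ncs1, a neuronal calcium sensor (10.4 and 6.38), and Dnm1, the dynamin of synaptic vesicle endocytosis (10.4 and 6.83). Icam5, a dendritic adhesion protein (8.32 and 6.60), and Nrp2, a semaphorin receptor (7.0 and 4.95), were also in this group. So were Slitrk1 (6.74 and 5.94), Syn2, a synaptic vesicle protein (6.30 and 5.22), and Fat3 (6.78 and 6.52). The cluster in Ctnna3 (6.03 and 4.07) is centred 3306 bp from the start of Lrrtm3, a synaptic adhesion gene nested in it. In the same way the cluster in Immp2l (5.69 and 4.02), not counted in this group, is centred 2100 bp from the start of the nested Lrrn3, a gene for a leucine-rich repeat membrane protein of neurons. It had 2.52 peaks per kb, the most among clusters with at least 6 peaks, but 4 of its 6 peaks overlap and the 6 cover 3 separate stretches. At the other end, Ptprd, a receptor phosphatase of synapse formation, held a cluster centred 566700 bp from its nearest annotated start (4.56 and 3.72).

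Genes of signalling were given 12 clusters, with median sums of 8.39 and 5.44. Ralgds, an exchange factor for Ral (12 and 8.14), and Rasgef1a (10.6 and 8.49) had the highest sums of the group. Spry2, a feedback inhibitor of receptor tyrosine kinases, had 6 peaks in 6.11 kb (9.34 and 5.08). Irs1, the insulin receptor substrate, had 6 in 11.3 kb (8.79 and 6.53). Gadd45g, a stress and growth arrest gene that also responds to neuronal activity, had 5 in 4.54 kb (8.27 and 5.67). Gprc5b was the nearest gene of 1 of the 5 longest clusters, 12.6 kb, and the one least filled by listed bases. The longest of all was the Coro2b cluster, 19.5 kb between 7 peaks, with sums of 16.5 and 11.5. The Ptma cluster (18 and 11.2) and the Nap1l1 cluster (11.2 and 7.17), given to genes for prothymosin alpha and a histone chaperone, were in none of these groups.

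The lowest sums were those of the cluster nearest Pramef17 (2.18 in replicate 1 and 2.41 in replicate 2) and of the cluster nearest Uap1 (3.24 and 1.64). All 5 member peaks of the Pramef17 cluster had more than 1 copy in the assembly, up to 1428. In the median member peak there, 100% of bases were masked as repeats, and how reads were placed is not stated. Pramef17 itself belongs to a family of near-identical genes. Its cluster had the lowest ratio between libraries, 0.906. In all, 6 of 496 member peaks had more than 1 copy (1.21%), against 288 of 38769 other shared distal peaks (0.743%).

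Bases between member peaks were often listed as open too. The authors' table of false discovery rates lists bases at a rate of 0.05 or lower, and the stricter peaks are a part of these bases, so the shares inside spans follow in part from the rule. In the median cluster 58.5% of the span was listed in replicate 1 and 57.2% in replicate 2, against 6.36% and 4.28% in flanks of the same length on each side. Between the peaks, the share was 41.8% and 46.8%, and it was above that of the flanks in 77 of 82 clusters in replicate 1 and 79 in replicate 2. A cluster ends where no further shared distal peak is centred within the joining distance, so the rule also keeps such peaks out of the nearby flanks. The low shares of the flanks, and the counts of clusters above them, therefore follow in part from the rule and are no separate result. These bases include stricter peaks that are no members, since they are close to a transcript start or not shared. The spans held 602 stricter peaks in replicate 1 and 559 in replicate 2, members included. In the Id2 cluster there were 14 for 8 members, and the tallest promoter peak of Id2 in replicate 1, 6.25, was above its tallest member, 3.41. Clusters near coding starts were the most filled, at 81.9% and 79.8% of the span. Clusters far from coding starts had 39.9% and 30.9%. The Kdm6b cluster (98.2% and 93.2%), the Maml3 cluster (99.1% and 96.6%) and the Hsd17b12 cluster (100% and 95.5%) were close to single continuous domains of listed bases, while the Gprc5b cluster had 11.1% and 9.73%. The Trib2 cluster lay in a wider listed domain, with 73.2% and 74.8% of its flanks listed. Neighbouring member peaks had a median gap of 540 bp and touched or overlapped in 40 of 414 pairs (9.66%). In smaller joined groups the median gap was 1080 bp, and 495 of 6195 pairs touched or overlapped (7.99%). Spacing is what the rule selects on, so this difference is not a result.

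**Figure D3:**
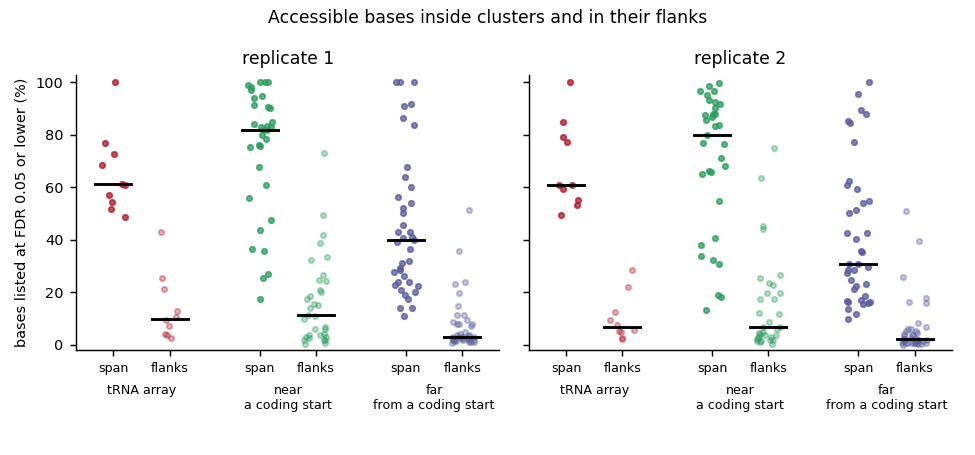
Share of bases listed by the authors at a false discovery rate of 0.05 or lower (y axis, percent), for the span of each cluster and its flanks, by class and library, with 1 point per cluster and a black bar at the median. Clusters near a coding start have median span shares of 81.9% and 79.8%, and clusters far from one 39.9% and 30.9%.

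Member peaks were somewhat taller than the other shared distal peaks. The median height was 1.26 against 1.05 in replicate 1 and 0.979 against 0.837 in replicate 2, ratios of 1.20 and 1.17 (mean 1.19 ± 0.0231 SD, n = 2). The member peaks of the tRNA arrays had medians of 2.57 and 2.03. Without them the ratios were 1.14 and 1.06. When all distal peaks of replicate 1 were clustered without asking for overlap, the ratio was 0.826, in the other direction. Of the members, 16.3% and 16.9% were in the top 10% of shared distal peaks by height, and 10.4% and 10.9% of the members outside tRNA arrays. The tallest shared distal peak anywhere, 38.4 in replicate 1 and far above the tallest member at 7.74, lay outside the clusters. Member peaks were wider, with a median of 240 bp against 200 bp.

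Fewer member peaks held a footprint, with the footprints of both libraries counted inside the replicate 1 peaks. In replicate 1, 438 of 496 did (88.3%), against 36832 of 38769 other shared distal peaks (95%), and in replicate 2, 395 (79.6%) against 34810 (89.8%). The difference was -6.70 and -10.2 percentage points (mean -8.42 ± 2.44 SD, n = 2), in the same direction in both libraries. It shrank to -0.685 points with the broader peak sets. It was widest in the lower middle of 4 height bands of about equal numbers of shared distal peaks, where 75.4% of 134 members and 96.6% of other peaks held a footprint in replicate 1, and 63.0% of 119 members and 91.3% of others in replicate 2. In the top band of replicate 1, all 164 members did, and 9594 of 9598 others. In the top band of replicate 2 it was 95% of members and 99.2% of others. Members had more footprints per peak (3.49 against 2.96 and 2.37 against 2.20) but fewer per 100 bp (1.21 against 1.35 and 0.820 against 1.01). Among members outside tRNA arrays the shares were 88.4% and 78.4%. In the Egr3 cluster, given to an early response gene of neuronal activity, only 2 of 5 peaks held a footprint in either library, although its tallest peak was at 4.10 and 2.75.

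**Figure D4:**
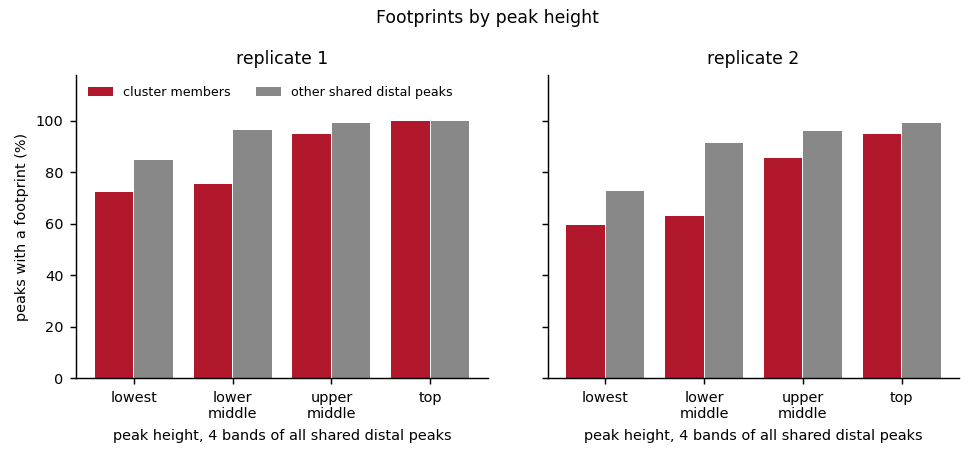
Share of peaks with at least 1 footprint (y axis, percent) among cluster members and other shared distal peaks, by 4 bands of peak height over all shared distal peaks (x axis), for replicate 1 and replicate 2. In replicate 1 the bars of members and others stand at 75.4% and 96.6% in the lower middle band, and both are near 100% in the top band.

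Member peaks had more CpG dinucleotides than other distal peaks. The ratio of observed to expected CpG had a median of 0.404 in members and 0.262 in others, and it was over 0.6, the level often used to define CpG islands, in 19.96% of members and 5.21% of others. It was highest in tRNA arrays (0.808), 0.444 in members near coding starts and 0.295 in members far from them. Median GC content was 53.0% against 49.5%. Members also lay nearer to coding starts, with a median of 9547 bp against 27646 bp, and more often in exons, with 58 of 496 (11.7%) against 2188 of 38769 (5.64%). Of the 58 exonic members 49 were in the class near coding starts. Only 2 members overlapped a RefSeq enhancer (0.403%), close to the 0.441% of other shared distal peaks.

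Consensus motifs were searched on both strands in windows of 200 bp around peak centres, and a match says only that the letters occur there. Of the 23 motifs, CUX/ONECUT (TATCGAT), SP/KLF (GGGCGGG), CRE (TGACGTCA) and ETS (CCGGAAG) had the highest ratios of the member share to the share in others. SP/KLF, the GC box of ubiquitous zinc-finger factors, was found in 51 members (10.3%, Wilson 7.91 to 13.3%) and in 3.76% of other shared distal peaks, 3.84% of all of them. The share was 12.4% in members near coding starts, 9.17% in members far from them and 7.69% in tRNA arrays. The other 3 were rare. CUX/ONECUT occurred in 2 members and CRE in 4. ETS occurred in 10 members (2.02% against 1.27%), and without the tRNA arrays its share was 1.39%. The lowest ratios were those of POU (ATGCAAAT), in 2 members (0.403% against 1.47%), and of NFI (TGGC and GCCA with 5 bases between them), in 5 (1.01% against 2.09%). Chosen after their values were seen, AP-1 (TGANTCA), bound by the Fos and Jun proteins, was in 7.26% of members (Wilson 5.29 to 9.88%) and 14.4% of others, and the E-box of neurogenic factors (CCATCTG) in 7.06% and 12.7%. AP-1 was less frequent than in other distal peaks in each class, at 1.54% in tRNA arrays, 8.91% near coding starts and 7.42% far from them. The other motifs marked in the printed sequences were the ZEB E-box (CAGGTG), in 13.1% and 14.9%, the clock E-box (CACGTG), in 3.63% and 4.33%, and the homeobox site (TAATTA), in 2.82% and 3.71%. The ZEB, clock and neurogenic E-boxes share the core of an E-box but none of these 3 consensus sequences contains another, while an EGR match (GTGGGCG) followed by GG also holds the SP/KLF motif. The tRNA B box (GTTCNANNC), added after the tRNA arrays were seen, occurred in 37 of 65 member peaks of the arrays (56.9%), in 5.80% of other members and in 6.29% of other shared distal peaks.

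**Figure D5:**
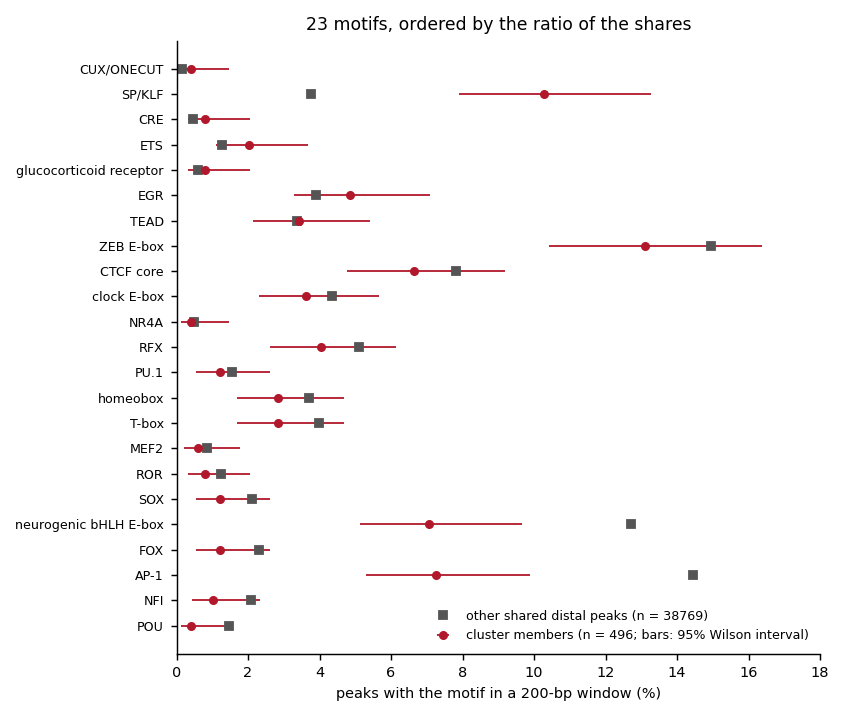
Share of peaks with each of 23 motifs in a 200-bp window (x axis, percent) for the 496 cluster members, with 95% Wilson intervals that cover counting error only, and for the other 38769 shared distal peaks, ordered by the ratio of the shares. SP/KLF stands at 10.3% in members and 3.76% in others, and AP-1 at 7.26% and 14.4%.

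Most of the genes given to clusters had an open promoter, a peak centred within 1000 bp of a transcript start. In each library 73 of the 82 genes did (89.0%), and 72 did in both, against 63.1% and 59.0% of all coding genes. Genes of the 10 tRNA arrays are included, and without them the share was 91.7% and 93.1%. The share among genes that hold or lie nearest other shared distal peaks was not counted. Of the 38 genes that hold a cluster, 36 had an open promoter in replicate 1 and 37 in replicate 2. In 29 of the 72 genes open in both libraries, a member peak was taller than the gene's tallest promoter peak in both. These include the genes nearest the tRNA arrays of Ctc1, Dhx37, Shf, Borcs6 and Fcgr4. The Mef2c promoter peaks were at 1.55 in replicate 1 and 1.10 in replicate 2, against 4.46 and 3.44 for the tallest member, and Msl1 had 1.80 and 1.70 against 6.67 and 3.53. The opposite held for Bahcc1, with 12.9 and 8.01 against 5.65 and 2.63. For Kdm6b a promoter peak was found in replicate 2 alone (0.937).

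Few genes of the lists examined were given a cluster, although their share was above that of all coding genes. Over 21 lists of cell types, activity, signalling, housekeeping and other tissues, 5 of 334 genes were (1.5%), against 0.374% of all coding genes, and the lists were drawn up with earlier results of these data known. By the nearest start alone it was 7 (2.10%), and by gene bodies within 100000 bp of a cluster midpoint 14 (4.19%), against 1.41% of all coding genes. The 5 were Egr3 and Gadd45g among 32 immediate early and activity-regulated genes, Mef2c among 14 genes of excitatory neurons, Id2 among 20 of astrocytes and Spry2 among 18 of growth factor signalling and feedback. None of the genes of deep or upper layers, inhibitory neurons, oligodendrocytes and their precursors, microglia, endothelium or mural cells was given one. Neither was any of the synaptic adhesion, potassium channel, clock, glucocorticoid-responsive, housekeeping, liver, trunk Hox or lymphoid genes. The other assignments added some of these. The nearest start alone gave Nr1d1 (clock) and Lrrtm3 (synaptic adhesion), and gene bodies within 100000 bp gave 3 housekeeping, 2 clock and 1 lymphoid gene among others. As a check of the tissue, promoter peaks were found in both libraries at most genes of excitatory neurons (14 and 12 of 14) and upper layers (11 and 9 of 11). They were found at 1 of 13 liver genes and at none of 15 trunk Hox genes. Shares were smaller in several other cell types. They were 9 and 7 of 18 genes for oligodendrocytes, 7 and 6 of 12 for their precursors and 11 and 10 of 18 for inhibitory neurons. Microglia had 5 and 3 of 15, endothelium 6 and 3 of 13 and mural cells 2 and 1 of 10. Astrocyte genes had 18 and 13 of 20, and deep layer genes 11 and 7 of 11. Lymphoid genes had 3 and 3 of 13, as many as endothelium in replicate 2.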

How the data were processed

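The DNase-seq files hold, for each library, 2 peak lists, a false discovery rate per base and footprints, each made per library on mm10, per the file headers. Peak heights are a signal deposited by the authors; the false discovery rate is a q-value (p-value unit) deposited by the authors, listed to 0.05, and footprints carry the constant 0.01. Not given in the sources used here were aligner, callers, their settings and depth. Chromosome names matched GRCm38.p6 for all 21.

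Peaks were joined, given genes (GENCODE M21) and tRNA genes (RefSeq), and searched for motifs with Python 3.11.15, pandas 2.3.3, numpy 2.4.6, pysam 0.24.0 and bedtools 2.31.1. Joining was tested on simulated data, where 40 of 40 clusters planted among 593 peaks were recovered. Overlap meant 1 bp. Copies are the median count of 3 words of 31 bases on the placed chromosomes. Named were the 12 clusters with most peaks, the 10 with the highest summed height, the 5 longest, the 5 densest, up to 5 members of a list, and the motifs with the 4 highest and 2 lowest ratios. Not all of these are reported here. Clusters of the 3 gene groups, those of lowest sum and single contrasts were named after their values were seen. Members, lists and rules were chosen with earlier results of these data known. Alternatives and each library left out are in the closing section.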

Additional observations from a re-analysis of the deposited data

How the results depend on the processing

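The number of clusters followed the rule closely. Against 82 it was 449 with the broader peak sets, 49 when at least 50% of the replicate 1 peak had to overlap, 41 and 200 with joining distances of 2500 and 10000 bp, 48 with peaks over 2500 bp from transcript starts, 270 and 42 with a minimum of 4 and 6 peaks, and 21 with peaks above the median height in both libraries. With 1 library left out and no overlap asked for, it was 171 to 606. The median span of 6.35 kb became 7.17 kb with the broader sets, 6.11 kb with 50% overlap, 3.76 and 12.7 kb with the shorter and longer joining distance, 6.16 kb over 2500 bp from starts, 5.06 kb with a minimum of 4 peaks, 8.20 kb with tall peaks only, 6.72 kb with replicate 2 as the seed, 7.25 kb without peaks over tRNA genes, 7.98 kb with overlapping peaks merged, and 6.15 to 6.56 kb with 1 library left out. The mean median summed height of 7.26 became 5.34 with the broader sets, 5.45 and 8.88 with a minimum of 4 and 6 peaks, 11 with tall peaks only, and 5.16 to 5.86 with 1 library left out. The share held in coding genes, 46.3%, fell to 29.2% over 2500 bp from starts and 28.6% with tall peaks only.

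The ratio of member to other median height, 1.19, was 1.24 with the broader sets, 1.07 and 1.25 with the shorter and longer joining distance, 1.26 over 2500 bp from starts, 1.15 with a minimum of 6 peaks, 1.12 with replicate 2 as the seed, 1.10 without peaks over tRNA genes and 1.23 with overlapping peaks merged. With replicate 2 left out it was 0.826, the other direction, and with replicate 1 left out 1.04. The cause was not tested. The footprint difference of -8.42 points was -0.685 with the broader sets, -13.1 and -3.38 with the shorter and longer joining distance, -5.94 and -12.5 with a minimum of 4 and 6 peaks, -2.49 with tall peaks only, and -18.4 to -14.2 with 1 library left out, below 0 in each of these. In a 100-bp window SP/KLF was in 6.45% of members (2.22% of others), ETS in 1.01% and POU in 0. Genes of the lists with a cluster were 14 by gene bodies within 100000 bp.

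With replicate 2 as the seed there were 83 clusters, and these overlapped 69 of the 82. The alternatives without tRNA genes and with overlapping peaks merged, added after the data were seen, left 72 and 70. All settings for the 2 results that follow were also added then. The mean share of genes with an open promoter, 89.0%, was the same in both libraries (SD 0), so by that spread all 15 alternatives moved it. It was 86.9% with the broader sets, 84.7% with 50% overlap, 82.9% and 81.1% with the shorter and longer joining distance, 85.4% over 2500 bp from starts, 85.7% with coding starts only and with tall peaks only, 82.3% and 89.3% with a minimum of 4 and 6 peaks, 89.9% under 50% repeats, 87.7% with replicate 2 as the seed, 92.4% without tRNA genes, 88.6% with overlapping peaks merged, and 80.8 to 87.2% with 1 library left out. All 15 lie within the 95% Wilson interval of the share, 80.4 to 94.1%, a comparison made after the SD of 0 was seen. The correlation between libraries of log10 summed height, 0.942, was 0.918 to 0.965 over 13 alternatives. It has no replicate spread, and a tolerance of 0.05 was chosen for it. No paired analysis was possible because there was a single group and no test. Since no depth is stated, the precision of a single height is unknown, and intervals of shares cover counting error only.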
